A study of Homo sapiens with 12 samples.

Results

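Cholesterol is made, moved and sensed by a defined set of genes, and 34 of them were followed here across knockdowns of 3 genes of citrate handling. They were the rows of the deposited count table whose Ensembl identifier carries the symbol of an enzyme of cholesterol synthesis, of a component of the sterol-sensing SREBP machinery, of a sterol carrier or storage enzyme, or of the LXR branch. The table lists 70116 identifiers, and all 34 genes were found in it. Of these, 31 had enough counts to be tested, among 16197 genes tested in all.

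The cells were MiaPaCa-2, an established human pancreatic cancer line, transfected with a small interfering RNA (siRNA), a short duplex that directs the loss of a matching transcript. The 4 groups were a control siRNA (siControl) and siRNAs against SLC25A1 (siSLC25A1), ACLY (siACLY) and ACO1 (siACO1), with 3 replicates each and no other agent or allele named. SLC25A1 is the mitochondrial citrate carrier, ACLY is the enzyme that releases acetyl-CoA from citrate in the cytosol, and ACO1 is the aconitase of the cytosol, which makes isocitrate from citrate and can instead bind iron-responsive elements in RNA. The series title asks how cytosolic citrate relates to ferroptosis under nutrient stress, but the medium at harvest, the time after transfection and the siRNA sequences were not given in the sources used here. The model is 1 cell line, the labels do not say whether replicates were separate cultures, and p-values therefore measure the spread between these libraries, which may be technical.

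Cholesterol is built from acetyl-CoA by way of mevalonate, isoprenoid units, squalene and lanosterol, whose ring system is then trimmed and reduced. When membranes of the endoplasmic reticulum hold little sterol, the escort protein SCAP carries the SREBP transcription factors to the Golgi apparatus, where they are cut and set free to switch on genes of sterol and fatty acid synthesis, while INSIG proteins hold SCAP back when sterol is plentiful. Oxysterols, which accumulate with cholesterol, bind the nuclear receptors LXR alpha and LXR beta, which pair with RXR and switch on cholesterol exporters, the ubiquitin ligase gene MYLIP and SREBF1 itself.

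Libraries held between 24159424 and 43792811 counts, and all levels below are counts relative to the library total (CPM) scaled by trimmed means of M values (TMM). Each targeted transcript was low in its own knockdown: SLC25A1 was at 8.78% of control, ACLY at 7.25% and ACO1 at 3.75% (edgeR quasi-likelihood test, adjusted p at most 2.43e-25). The epithelial keratin genes and EPCAM summed to between 3130 and 3920 CPM in siControl, siSLC25A1 and siACLY and to between 2070 and 2180 CPM in siACO1, and EPCAM had no count in siControl. The mesenchymal marker VIM lay between 3470 and 4810 CPM. Acinar, islet and leukocyte markers had no counts in any library, and endothelial and fibroblast markers summed to at most 0.36 and 0.0776 CPM. One library stood apart: the deviation of siACO1 replicate 3 from its group fell with exon length (Spearman's rho -0.258, n = 15384 genes, a description across genes of 1 library), against 0.160 and 0.202 in the other siACO1 libraries and values between -0.098 and 0.048 elsewhere. The part of these differences in the results was not tested, and the counts of called sterol genes are given below with and without that library. In bulk RNA, fewer cells of a kind and less RNA per cell cannot be told apart.

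Promoters of 5 of the genes are shown because several results below turn on these genes, and INSIG1 and SREBF2 hold a motif that an SREBP can bind. Each run is the 200 bases upstream of a RefSeq transcription start (assembly GRCh38.p14, credited to RefSeq), written 5′ to 3′ on the strand of the gene, and RefSeq starts can differ from those of other annotations. Where a gene has several RefSeq starts, the stretch with most motif matches was chosen. Capitals mark matches, on either strand, to 3 motifs: TCACNCCAC, a form of the sterol regulatory element that SREBPs bind, TCACNTGA, an E-box that SREBP-1 can also bind, and CCAAT, the box of NF-Y, a factor known to act beside SREBPs.
MSMO1 (chr4:165327469-165327668, plus strand): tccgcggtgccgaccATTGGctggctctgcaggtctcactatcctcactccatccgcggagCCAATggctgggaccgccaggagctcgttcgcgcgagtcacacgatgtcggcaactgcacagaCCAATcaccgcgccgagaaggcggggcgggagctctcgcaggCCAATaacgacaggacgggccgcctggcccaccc
HMGCS1 (chr5:43313413-43313612, minus strand): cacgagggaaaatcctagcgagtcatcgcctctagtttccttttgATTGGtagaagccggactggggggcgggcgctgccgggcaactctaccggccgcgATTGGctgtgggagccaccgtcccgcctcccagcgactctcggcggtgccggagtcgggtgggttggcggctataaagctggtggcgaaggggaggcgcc
DHCR7 (chr11:71448394-71448593, minus strand): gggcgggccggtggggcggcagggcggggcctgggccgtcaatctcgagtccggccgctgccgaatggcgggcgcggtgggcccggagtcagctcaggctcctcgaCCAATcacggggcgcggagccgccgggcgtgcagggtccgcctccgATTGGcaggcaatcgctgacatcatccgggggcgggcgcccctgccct
INSIG1 (chr7:155297678-155297877, plus strand): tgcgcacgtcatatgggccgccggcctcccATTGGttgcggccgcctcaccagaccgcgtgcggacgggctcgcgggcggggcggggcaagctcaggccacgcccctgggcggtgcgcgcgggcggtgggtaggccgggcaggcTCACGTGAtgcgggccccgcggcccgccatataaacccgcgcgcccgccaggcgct
SREBF2 (chr22:41832905-41833104, plus strand): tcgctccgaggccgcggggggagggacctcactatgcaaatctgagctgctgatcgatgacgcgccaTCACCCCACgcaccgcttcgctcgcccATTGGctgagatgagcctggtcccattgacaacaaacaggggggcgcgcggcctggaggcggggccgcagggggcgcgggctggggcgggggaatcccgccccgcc

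The MSMO1 stretch holds 4 CCAAT boxes, those of HMGCS1 and DHCR7 hold 2 each, and INSIG1 and SREBF2 hold 1 each. HMGCS1 and DHCR7 each have another RefSeq window, not shown, without a CCAAT box. INSIG1 has the E-box at position -56 and SREBF2 the sterol regulatory element at position -133, counted from the RefSeq start. RefSeq windows of 250 bases before to 50 after the start were at hand for 30 of the 34 genes, with none for ACAT2, FDFT1, SQLE and ABCG1. Some genes have several windows, and a gene was counted when any of its windows held a match. The CCAAT box occurred for 21 of these 30 genes (70%), against 39.7% of the 27305 genes with a window. In these windows MVK and NSDHL, whose promoters are not shown, held 5 CCAAT boxes each, against 4 in MSMO1. The E-box occurred in 2 of 30 (6.67%; EBP and INSIG1) against 4.65% of all genes, and the sterol regulatory element in 1 of 30 (3.33%; SREBF2) against 1.39%. The motifs do not overlap each other in the stretches shown, and a match describes letters in a window only.

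In siControl, the genes differed widely in level when counts were taken per kilobase of annotated exon (GENCODE 29, all exons of a gene merged). SREBF1, which encodes SREBP-1, was at 29.1 ± 1.64 CPM per kilobase (SD, n = 3) and PMVK, a mevalonate pathway kinase, at 27.1 ± 1.31. Their libraries overlapped, so their order is not resolved. SOAT1, the enzyme that esterifies cholesterol for storage, followed at 22.6 ± 0.731 and NPC2, a soluble cholesterol carrier of lysosomes, at 21.4 ± 1.09, again with overlapping libraries. Most synthesis enzymes lay between these and SC5D, the sterol desaturase, which was at 1.74 ± 0.0290 CPM per kilobase, below NR1H3 (LXR alpha) at 1.92 ± 0.130.

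The lowest genes stood far under the rest. The LXR-driven exporter ABCA1 was at 0.0996 ± 0.0329 CPM per kilobase and its partner ABCG1 at 0.0757 ± 0.0231, with overlapping libraries. Squalene synthase, FDFT1, had 138 counts in all 12 libraries together, between 5 and 21 in each. NSDHL, a sterol dehydrogenase, had 1 count in all, in siACLY replicate 1, and STARD4, a cytosolic sterol carrier, had 0. A count of 0 in 1 library allows a level of up to 3 counts, which is between 0.0685 and 0.124 CPM, and this limit covers counting error only. NSDHL, STARD4 and ABCG1 were too low to be tested. Whether these transcripts were scarce in the cells or were lost in the counting was not tested.

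**Figure D1:**
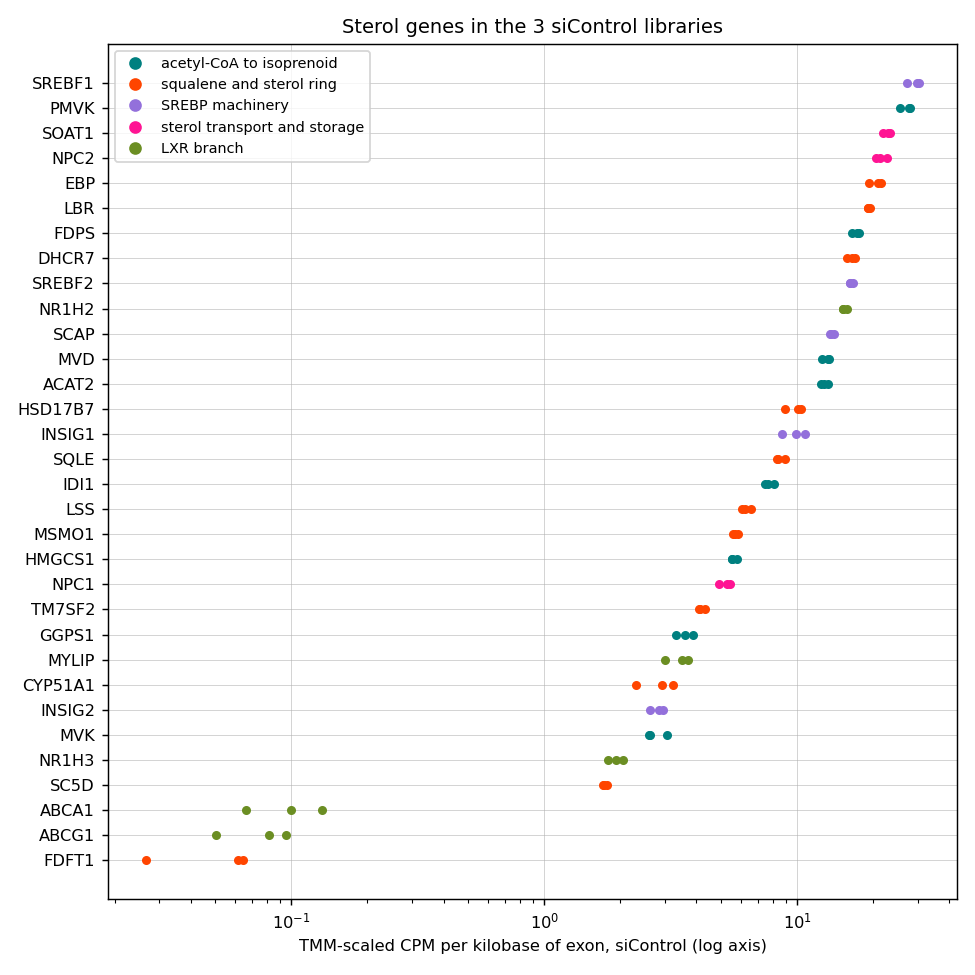
Level of each sterol gene in the 3 siControl libraries, in TMM-scaled CPM per kilobase of exon on a log axis, with genes ordered by mean and coloured by role. SREBF1 and PMVK are at the top, and ABCA1, ABCG1 and FDFT1 lie far to the left of SC5D, the next gene up. NSDHL and STARD4, with no counts in siControl, are not drawn.

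Against siControl, knockdown of ACLY or ACO1 raised more of the sterol genes than it lowered, and knockdown of SLC25A1 did not. In siACLY 15 of the 31 tested genes were higher and 5 were lower, where 18.4% and 18.3% of all tested genes were called higher and lower (edgeR quasi-likelihood test, adjusted p under 0.05 over all genes). In siACO1 12 were higher and 5 lower, against 17.8% and 19.3% of all genes. In siSLC25A1 5 were higher and 6 lower, against 10.3% and 9.27%. The median log2 fold change of the 31 genes was 0.18 in siACLY, 0.11 in siACO1 and -0.02 in siSLC25A1, where the median of all tested genes was 0.01, 0.01 and 0.00. The 3 comparisons share the siControl libraries, so their calls are not independent, and a gene called alike in several of them may owe part of that to the controls.

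Of the 31 genes, 25 were called in at least 1 of these comparisons, and 6 in none (PMVK, GGPS1, FDFT1, LSS, INSIG2 and NR1H2). The share of all tested genes called in at least 1 comparison was not counted, so the 25 describe these genes only. Of all tested genes, 19.6% were called in siSLC25A1, 36.7% in siACLY and 37.1% in siACO1. Without siACO1 replicate 3 the counts were 15 higher and 6 lower in siACLY, 11 and 6 in siACO1, and 5 and 7 in siSLC25A1. Scaling by library totals alone gave 16 higher and 5 lower in siACLY, 15 and 4 in siACO1, and 5 and 6 in siSLC25A1. Under that scaling the share of higher genes among all called genes moved from 50.1% to 61% for siACLY and from 47.9% to 59.5% for siACO1, while the median log2 fold change of all genes moved from 0.008 to 0.051 and from 0.006 to 0.055.

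**Figure D2:**
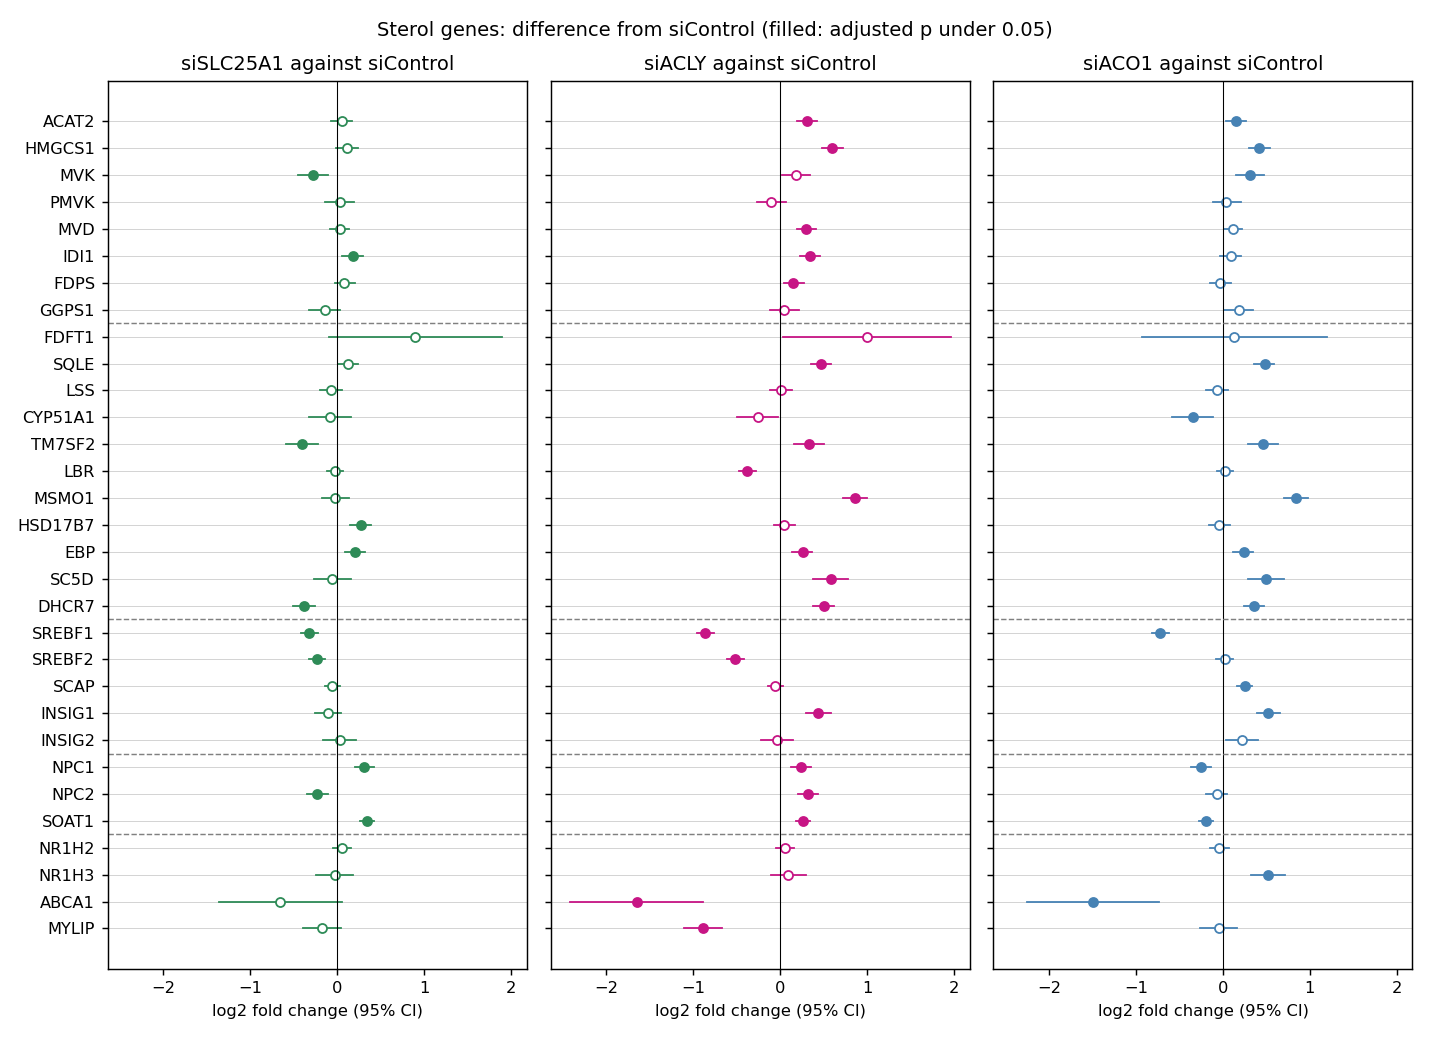
Log2 fold change of each tested sterol gene in siSLC25A1, siACLY and siACO1 against siControl (x axis), with its 95% confidence interval, from edgeR on 3 libraries a group; filled points have an adjusted p under 0.05 and dashed lines divide the roles, from synthesis at the top to the LXR branch at the bottom. MSMO1 stands at 0.86 in siACLY and 0.84 in siACO1 but at -0.02 in siSLC25A1, and SREBF1 is below 0 in all 3 panels.

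The first segment of the pathway leads from acetyl-CoA to isoprenoid units and has 8 tested genes. In siACLY 5 of them were higher and none lower (median log2 fold change 0.24), in siACO1 3 were higher and none lower (0.13), and in siSLC25A1 1 was higher and 1 lower (0.04). Over all tested genes 18.4% were higher and 18.3% lower in siACLY, 17.8% and 19.3% in siACO1, and 10.3% and 9.27% in siSLC25A1. The siSLC25A1 counts of this segment, 12.5% each way, were near that background. These shares also stand beside the counts of the other roles below. Each role has at most 11 tested genes, so its counts describe those genes only. HMGCS1, the synthase that makes HMG-CoA, rose most in both siACLY and siACO1.

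HMGCS1 (chromosome 5, 43289395 to 43313512 in GENCODE 29 on GRCh38) measured 27.3, 25.9 and 26.0 CPM in the siControl libraries and 28.8, 27.6 and 29.4 in siSLC25A1. It measured 38.8, 41.1 and 40.2 CPM in siACLY and 36.4, 36.6 and 33.0 in siACO1. Every siACLY and siACO1 library lay above every library of the other groups, and siACLY above siACO1. The log2 fold change was 0.60 in siACLY (SE 0.06, adjusted p 3.14e-09), 0.42 in siACO1 (SE 0.06, adjusted p 1.76e-06) and 0.11 in siSLC25A1 (SE 0.06, adjusted p 0.205).

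MVK, the kinase that phosphorylates mevalonate, went in opposite directions in siSLC25A1 and siACO1. It measured 16.8, 19.9 and 16.9 CPM in siControl, 14.6, 15.7 and 14.1 in siSLC25A1, 21.3, 20.4 and 19.1 in siACLY and 23.1, 20.4 and 23.4 in siACO1. All siSLC25A1 libraries were under and all siACO1 libraries over the control range, while siACLY overlapped it. The log2 fold change was -0.28 in siSLC25A1 (SE 0.08, adjusted p 0.0173), 0.18 in siACLY (SE 0.08, adjusted p 0.0712) and 0.31 in siACO1 (SE 0.08, adjusted p 0.00223). The fall of MVK in siSLC25A1 was no longer called without siControl replicate 2 (-0.19), siSLC25A1 replicate 1 (-0.27) or siSLC25A1 replicate 3 (-0.25), and MVK in siACLY was called without siControl replicate 2 (0.27), with library totals alone (0.23) and in a fit of only the 2 groups (0.18).

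The next kinase, PMVK, lay between 29.6 and 41.4 CPM over all 12 libraries and was not called in any knockdown. MVD, the decarboxylase that yields isopentenyl diphosphate, measured 62.9, 59.4 and 63.3 CPM in siControl and 77.0, 72.5 and 78.9 in siACLY, a log2 fold change of 0.30 (adjusted p 2.64e-05). The groups did not overlap. In siACO1 MVD had a log2 fold change of 0.11 (adjusted p 0.086), which library totals alone moved to 0.16 and past the threshold (adjusted p 0.0118).

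IDI1, the isomerase that makes the allylic isoprenoid unit, rose in both siSLC25A1 and siACLY. It measured 33.2, 35.4 and 32.6 CPM in siControl, 37.5, 38.9 and 38.3 in siSLC25A1, 43.1, 42.4 and 43.1 in siACLY and 33.0, 37.4 and 37.0 in siACO1. The siSLC25A1 and siACLY libraries were all above the controls and the siACO1 libraries overlapped them. In log2 terms the changes were 0.18 (adjusted p 0.0264), 0.34 (adjusted p 1.73e-05) and 0.09 (adjusted p 0.249). The IDI1 call in siSLC25A1 was lost without siControl replicate 1 (0.17) or 3 (0.16) or siSLC25A1 replicate 2 (0.17) or 3 (0.18), and without a filter on low counts (0.17).

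ACAT2, the cytosolic thiolase that joins acetyl-CoA units at the head of the pathway, had a log2 fold change of 0.31 in siACLY (adjusted p 7.13e-05) and 0.15 in siACO1 (adjusted p 0.0349). Its count is uncertain, since 52.3% of its exon bases overlap other genes on the opposite strand and whether strand was used in counting is not given in the sources used here. The ACAT2 call in siACO1 was lost without siControl replicate 1 (0.15) or 3 (0.13), siSLC25A1 replicate 3 (0.15), or siACO1 replicate 1 (0.15) or 3 (0.11), and with DESeq2 (0.15). FDPS, which makes farnesyl diphosphate, rose by 0.15 on the log2 scale in siACLY (adjusted p 0.0342). Leaving out any of the siControl libraries (0.12 to 0.17), siACLY replicate 1 (0.15) or 2 (0.10), or siSLC25A1 replicate 3 (0.15) ended the FDPS call, as did DESeq2 (0.15). GGPS1, which makes the longer geranylgeranyl diphosphate and has 41% of its exon bases in other genes, was not called in any knockdown.

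The second segment leads from squalene to cholesterol and has 12 genes, of which 11 were tested. In siACLY and in siACO1 6 were higher and 1 was lower, with medians of 0.33 and 0.24 on the log2 scale. In siSLC25A1 2 were higher and 2 lower, with a median of -0.02. The methyl sterol oxidase gene MSMO1 had the largest rise of the called synthesis genes in siACLY and in siACO1, and DHCR7 and TM7SF2, both sterol reductases, fell in siSLC25A1 and rose in the other knockdowns.

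SQLE, the monooxygenase that makes squalene epoxide and a slow step of the pathway, measured 35.9, 36.2 and 38.5 CPM in siControl and 37.9, 40.2 and 42.3 in siSLC25A1. It measured 49.3, 50.9 and 53.2 CPM in siACLY and 52.6, 49.0 and 52.3 in siACO1. Every siACLY and siACO1 library was above every control, and the siSLC25A1 libraries overlapped the controls. SQLE was 1.39-fold higher in both siACLY (adjusted p 8.17e-08) and siACO1 (adjusted p 5.54e-08), with an adjusted p of 0.138 in siSLC25A1.

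The ring-closing enzyme LSS lay between 38.6 and 48.0 CPM over all libraries and was not called. CYP51A1, which removes a methyl group from lanosterol, fell by 0.35 on the log2 scale in siACO1 (adjusted p 0.02), although its siACO1 libraries (8.05, 9.04 and 6.71 CPM) overlapped the controls (11.6, 8.24 and 10.5). Its count is uncertain, since 83.2% of its exon bases overlap other genes and 30% of its 31-base stretches also occur elsewhere. The CYP51A1 call in siACO1 was lost without siControl replicate 1 (-0.24) or 3 (-0.32) or siACO1 replicate 3 (-0.24), with library totals alone (-0.30) and in a fit of only the 2 groups (-0.35). In siACLY CYP51A1 was called without siControl replicate 2 (-0.39) or siACO1 replicate 3 (-0.26), against -0.25 with all libraries (adjusted p 0.0899).

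The same double bond of the sterol ring can be reduced by the products of TM7SF2 and LBR, the latter also a protein of the inner nuclear membrane, and these genes did not change alike. TM7SF2 measured 13.98, 14.04 and 14.76 CPM in siControl, 10.5, 10.3 and 11.4 in siSLC25A1, 17.0, 17.6 and 19.3 in siACLY and 18.5, 18.0 and 22.2 in siACO1. The siSLC25A1 libraries were all below and the siACLY and siACO1 libraries all above the controls. Against siControl the log2 fold changes were -0.41 (SE 0.09, adjusted p 0.00139), 0.33 (SE 0.08, adjusted p 0.00251) and 0.46 (SE 0.08, adjusted p 5.53e-05).

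LBR measured 100.5, 101.8 and 100.5 CPM in siControl and 81.4, 77.1 and 74.3 in siACLY, a log2 fold change of -0.38 (SE 0.05, adjusted p 1.67e-07), with no overlap. It measured 105.7, 95.3 and 97.3 CPM in siSLC25A1 and 103.5, 102.8 and 100.7 in siACO1, where it was not called (log2 fold changes -0.02 and 0.02). LBR was thus the 1 gene of the ring segment that fell in siACLY, where TM7SF2 rose.

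MSMO1 (chromosome 4, 165327623 to 165343160), whose upstream stretch is printed above, measured 16.2, 16.9 and 16.4 CPM in siControl and 17.2, 15.3 and 16.2 in siSLC25A1. It measured 30.4, 31.8 and 27.9 CPM in siACLY and 27.6, 30.4 and 30.6 in siACO1. The siACLY and siACO1 libraries overlapped each other and were separate from the controls and from siSLC25A1, which overlapped each other. MSMO1 was 1.82-fold higher in siACLY (log2 fold change 0.86, SE 0.07, adjusted p 5.78e-11) and 1.79-fold higher in siACO1 (0.84, SE 0.07, adjusted p 8.82e-11), while siSLC25A1 gave -0.02 (95% confidence interval -0.17 to 0.13, adjusted p 0.876).

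HSD17B7 and EBP rose in siSLC25A1. HSD17B7, the ketoreductase of this segment, rose in siSLC25A1 from 48.2, 49.7 and 42.9 CPM to 60.4, 55.2 and 54.0 (log2 fold change 0.27, adjusted p 0.0012) and was not called in siACLY or siACO1. Its count is uncertain, since 22.5% of its 31-base stretches occur in other genes, among them the pseudogene HSD17B7P2. EBP, the isomerase that moves the ring double bond, was the only one of the 31 tested genes that was called higher in all 3 comparisons. It measured 46.2, 51.8 and 50.1 CPM in siControl, 60.4, 54.5 and 56.0 in siSLC25A1, 59.7, 59.3 and 58.0 in siACLY and 58.0, 54.9 and 61.6 in siACO1. All 9 knockdown libraries lay above all 3 controls, with log2 fold changes of 0.21 (adjusted p 0.00772), 0.26 (adjusted p 0.000439) and 0.24 (adjusted p 0.00101). The EBP call in siSLC25A1 was lost without siControl replicate 1 (0.16) or siSLC25A1 replicate 1 (0.16).

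SC5D, which adds a double bond to the ring, measured 9.55, 9.66 and 9.86 CPM in siControl, 8.65, 10.9 and 8.41 in siSLC25A1, 12.9, 15.9 and 14.96 in siACLY and 12.9, 13.6 and 14.3 in siACO1. The siACLY and siACO1 libraries were all above the controls, while siSLC25A1 lay on both sides of them. The log2 fold change was 0.58 in siACLY (SE 0.10, adjusted p 2.31e-05) and 0.49 in siACO1 (SE 0.10, adjusted p 0.000186).

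DHCR7, which makes cholesterol in the final reduction of one arm of the pathway, measured 70.3, 65.6 and 68.6 CPM in siControl, 49.1, 49.8 and 57.8 in siSLC25A1, 92.6, 99.0 and 97.5 in siACLY and 83.8, 83.1 and 94.5 in siACO1. No siSLC25A1 library reached the control range, and every siACLY and siACO1 library exceeded it. The log2 fold changes were -0.38 (SE 0.06, adjusted p 1.97e-05), 0.50 (SE 0.06, adjusted p 6.32e-08) and 0.36 (SE 0.06, adjusted p 1.33e-05). FDFT1, at the start of this segment, was tested on between 5 and 21 counts a library and was not called. Its 95% confidence intervals on the log2 scale were -0.10 to 1.89 in siSLC25A1, 0.03 to 1.96 in siACLY and -0.93 to 1.20 in siACO1. In siACLY FDFT1 was at 1.99-fold of control (edgeR, adjusted p 0.0995). Its siACLY libraries (0.36 to 0.81 CPM) all lay above the controls (0.139 to 0.335 CPM), while siSLC25A1 and siACO1 overlapped them. With so few counts, even a change near 2-fold was not called.

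**Figure D3:**
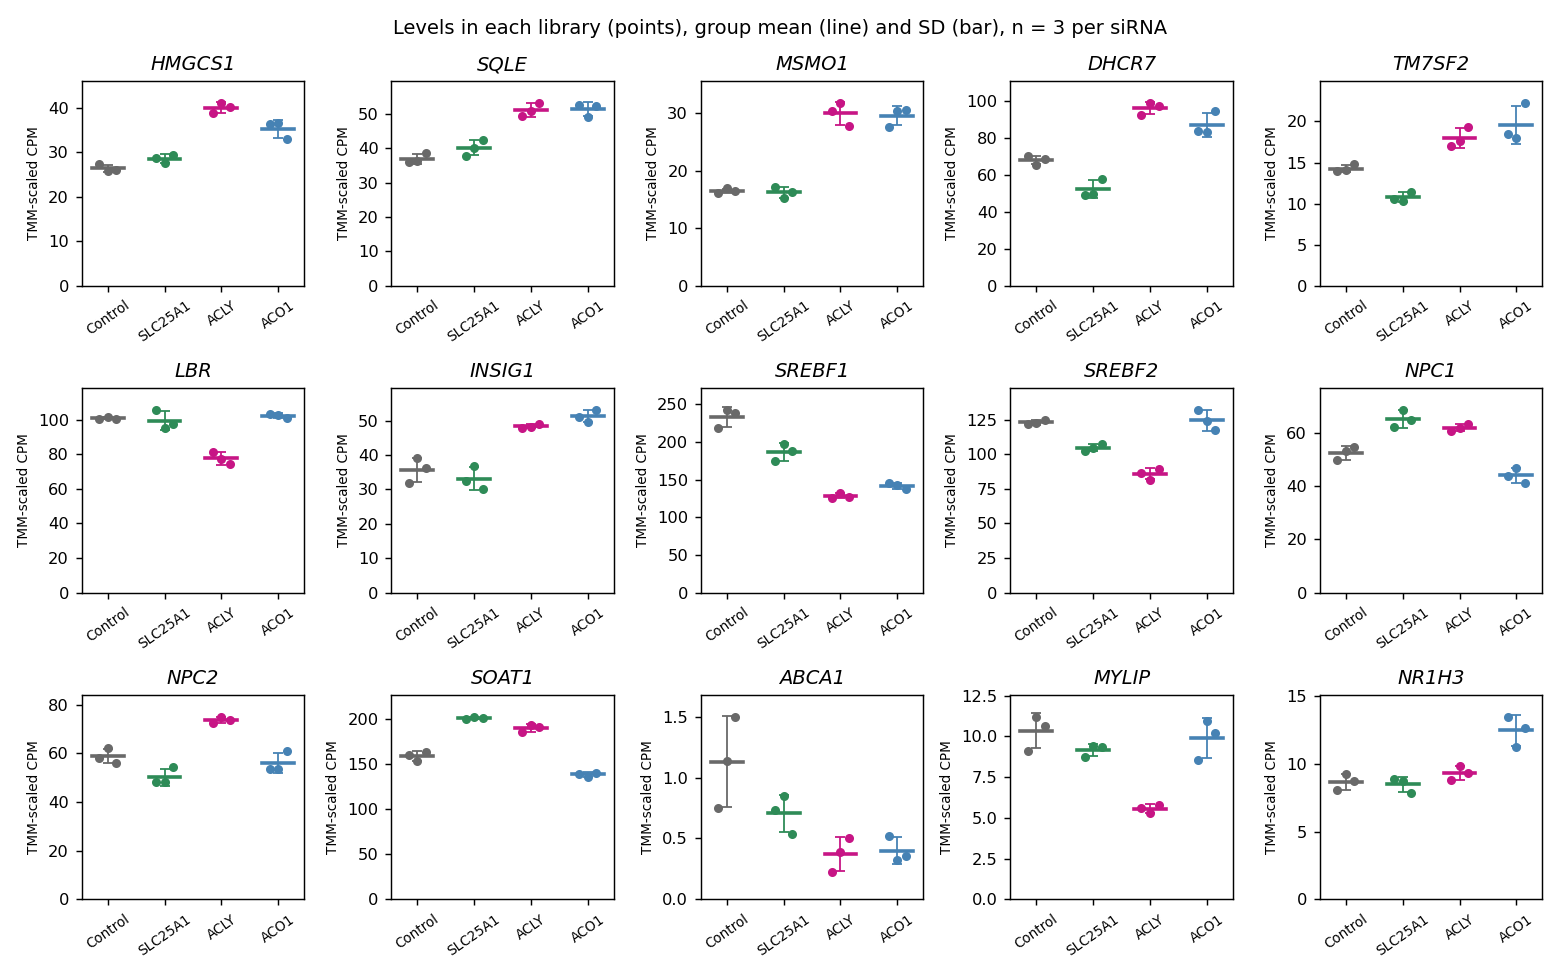
Levels of 15 sterol genes in each library (points; y axis in TMM-scaled CPM from 0), with the group mean (line) and SD (bar) over 3 libraries for siControl, siSLC25A1, siACLY and siACO1. HMGCS1, SQLE, MSMO1 and INSIG1 have all siACLY and siACO1 points above all others, DHCR7 and TM7SF2 are also low in siSLC25A1, and NPC1 and SOAT1 are high in siSLC25A1 and siACLY but low in siACO1.

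The 5 genes of the SREBP machinery changed differently in each knockdown. In siACLY 1 of the 5 was higher and 2 were lower, in siACO1 2 were higher and 1 lower, and in siSLC25A1 none was higher and 2 were lower. SREBF1 (chromosome 17, 17810399 to 17837002) was lower in all 3 knockdowns, and it was the only one of the 31 tested genes called lower in each.

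SREBF1 measured 218, 243 and 239 CPM in siControl, 175, 198 and 188 in siSLC25A1, 126, 133 and 127 in siACLY and 145, 143 and 137 in siACO1. None of the knockdown libraries reached the control range, and the 4 groups did not overlap each other. SREBF1 was at 80.1% of control in siSLC25A1 (log2 fold change -0.32, SE 0.05, adjusted p 8.18e-06), at 55.1% in siACLY (-0.86, SE 0.05, adjusted p 1.9e-14) and at 60.8% in siACO1 (-0.72, SE 0.05, adjusted p 7.63e-13). A gene count pools the transcripts of SREBP-1a and SREBP-1c, the proteins that SREBF1 encodes.

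SREBF2, which encodes SREBP-2, the form that mainly drives sterol synthesis, and whose upstream stretch holds the sterol regulatory element printed above, fell in siSLC25A1 and siACLY. It measured 122, 123 and 125 CPM in siControl, 102, 105 and 108 in siSLC25A1, 86.4, 81.8 and 89.8 in siACLY and 132, 124 and 117 in siACO1. The siSLC25A1 and siACLY libraries were all under the controls, while siACO1 lay on both sides of them. The log2 fold changes were -0.23 (adjusted p 0.000444), -0.52 (adjusted p 5.62e-10) and 0.02 (95% confidence interval -0.08 to 0.11, adjusted p 0.822).

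SCAP, the escort of the SREBPs, rose in siACO1 from 86.7, 87.4 and 90.0 CPM to 106, 104 and 103 (log2 fold change 0.25, adjusted p 1.96e-05). In siSLC25A1 and siACLY SCAP had a log2 fold change of -0.06 and was not called. INSIG1, which retains SCAP and is itself a target of SREBPs, measured 31.9, 39.0 and 36.1 CPM in siControl, 32.4, 36.8 and 30.2 in siSLC25A1, 48.0, 48.2 and 49.0 in siACLY and 51.03, 49.7 and 53.2 in siACO1. All siACLY and siACO1 libraries lay above the highest control, and siSLC25A1 overlapped the controls. INSIG1 rose by 0.44 on the log2 scale in siACLY (SE 0.07, adjusted p 6.15e-06) and by 0.52 in siACO1 (SE 0.07, adjusted p 3.47e-07), with -0.11 in siSLC25A1 (adjusted p 0.312).

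Its relative INSIG2 was not called in any knockdown against siControl. INSIG2 had a log2 fold change of 0.22 in siACO1 (adjusted p 0.0515), and it was called there without siACO1 replicate 1 (0.25, adjusted p 0.0497), with at least 10 counts required in every library (0.23, adjusted p 0.0375) and with library totals alone (0.27, adjusted p 0.0173).

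Sterol transport and storage had 3 tested genes. All were higher in siACLY, 2 were higher and 1 lower in siSLC25A1, and none was higher and 2 were lower in siACO1. NPC1, the membrane protein that exports cholesterol from lysosomes, and SOAT1 rose in siSLC25A1 and siACLY and fell in siACO1.

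NPC1 measured 49.8, 53.1 and 55.0 CPM in siControl, 62.1, 68.8 and 65.1 in siSLC25A1, 60.7, 62.0 and 63.6 in siACLY and 44.0, 46.9 and 41.4 in siACO1. No knockdown library fell within the control range. In the same order, the log2 fold changes were 0.31 (SE 0.05, adjusted p 8.77e-05), 0.24 (SE 0.05, adjusted p 0.000843) and -0.25 (SE 0.06, adjusted p 0.000555).

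NPC2, which hands cholesterol to NPC1, was instead lower in siSLC25A1. It measured 58.2, 62.2 and 56.2 CPM in siControl, 48.1, 48.3 and 54.3 in siSLC25A1, 72.4, 75.1 and 73.7 in siACLY and 53.7, 53.4 and 61.0 in siACO1. The siSLC25A1 libraries were all under and the siACLY libraries all over the controls, and siACO1 overlapped them. The log2 fold changes were -0.23 (SE 0.06, adjusted p 0.00423), 0.32 (SE 0.06, adjusted p 3.72e-05) and -0.07 (SE 0.06, adjusted p 0.35). Without siACO1 replicate 3, NPC2 was called lower in siACO1 (-0.14, adjusted p 0.0361).

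SOAT1 measured 160, 153 and 163 CPM in siControl, 200, 202 and 201 in siSLC25A1, 185, 193 and 191 in siACLY and 139, 136 and 140 in siACO1. The groups did not overlap each other. Its log2 fold changes were 0.34 (SE 0.04, adjusted p 1.55e-07), 0.26 (SE 0.04, adjusted p 4.76e-06) and -0.20 (SE 0.04, adjusted p 0.000225).

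In the LXR branch, of which 4 genes of 5 were tested, 2 were lower in siACLY, 1 was higher and 1 lower in siACO1, and none was called in siSLC25A1. The receptor gene NR1H2 (LXR beta) lay between 54.7 and 63.6 CPM in all libraries and was not called. NR1H3 (LXR alpha) rose in siACO1, from 8.07, 9.24 and 8.76 CPM to 13.5, 11.2 and 12.7, with no overlap (log2 fold change 0.52, SE 0.10, adjusted p 7.76e-05). Its log2 fold change was -0.03 in siSLC25A1 and 0.09 in siACLY, neither called.

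ABCA1 (chromosome 9, 104781002 to 104928237), the exporter that loads cholesterol onto lipid-poor apolipoproteins, was scarce and fell in siACLY and siACO1. It measured 0.754, 1.14 and 1.50 CPM in siControl, 0.732, 0.845 and 0.539 in siSLC25A1, 0.225, 0.388 and 0.501 in siACLY and 0.523, 0.325 and 0.353 in siACO1. These levels rest on 110 counts over the 3 siControl libraries, 55 in siSLC25A1, 33 in siACLY and 34 in siACO1. The siACLY and siACO1 libraries were all under the controls, and siSLC25A1 overlapped them. ABCA1 was at 31.8% of control in siACLY (log2 fold change -1.65, SE 0.37, adjusted p 0.000799) and at 35.5% in siACO1 (-1.49, SE 0.37, adjusted p 0.00188), and its change in siSLC25A1 was not called (-0.66, 95% confidence interval -1.36 to 0.05, adjusted p 0.192).

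ABCG1, the exporter to high-density lipoproteins, had 46 counts in siControl, 13 in siSLC25A1, 24 in siACLY and 13 in siACO1 and was not tested. MYLIP, an LXR target whose product marks lipoprotein receptors for degradation, fell in siACLY. It measured 9.13, 11.2 and 10.7 CPM in siControl, 8.72, 9.38 and 9.33 in siSLC25A1, 5.62, 5.28 and 5.78 in siACLY and 8.57, 10.9 and 10.2 in siACO1. The siACLY libraries were separate from all others. MYLIP was at 53.9% of control in siACLY (log2 fold change -0.89, SE 0.11, adjusted p 1.7e-07), with -0.18 in siSLC25A1 (adjusted p 0.259) and -0.05 in siACO1 (adjusted p 0.726).

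A further 65 genes of these pathways, of which 55 were tested, were counted in the same comparisons. Of these, 10 were higher and 5 lower in siSLC25A1, 17 and 12 in siACLY, and 16 and 16 in siACO1, with medians of -0.04, -0.04 and 0.00 on the log2 scale. Over all tested genes the shares called higher and lower were 10.3% and 9.27% in siSLC25A1, 18.4% and 18.3% in siACLY, and 17.8% and 19.3% in siACO1. The genes lower in siSLC25A1 and in siACLY were thus near the background, and the counts of the smaller lists below, each of at most 16 genes, describe those genes only. Among 8 tested genes of sterol synthesis that act beside the enzymes above, none was called in siSLC25A1, 4 were higher and none lower in siACLY, and 4 were higher and 1 lower in siACO1. ERG28, which tethers sterol enzymes in the endoplasmic reticulum membrane, was the 1 that fell in siACO1, from 18.6 to 8.88 CPM (-1.06 on the log2 scale, SE 0.08, adjusted p 2.39e-11), and it rose in siACLY to 27.0 CPM (0.53, adjusted p 1.05e-06).

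Among 12 tested genes of SREBP activation and sterol-regulated degradation, 4 were higher and 1 lower in siSLC25A1, 5 and 3 in siACLY, and 4 and 3 in siACO1, beside the all-gene shares just given. RNF145, a ubiquitin ligase of the sterol response and an LXR target, fell in siACLY from 64.5 to 34.1 CPM (-0.92 on the log2 scale, SE 0.05, adjusted p 6.7e-14). Among 11 genes of other mevalonate branches, which lead to dolichol, ubiquinone and prenylated proteins, 2 were higher and none lower in siSLC25A1, 2 and 3 in siACLY, and 1 and 4 in siACO1.

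Sterol transport, ester and storage genes beyond those above numbered 16 tested, of which 4 were higher and 2 lower in siSLC25A1, 6 and 2 in siACLY, and 4 and 4 in siACO1. GRAMD1B, which carries cholesterol from the plasma membrane to the endoplasmic reticulum, rose in siSLC25A1 from 33.0 to 56.3 CPM (0.77 on the log2 scale, SE 0.06, adjusted p 1.26e-10) and was also called higher in siACLY (0.64) and siACO1 (0.36). NCEH1, a cholesteryl ester hydrolase, rose in siSLC25A1 from 228 to 306 CPM (0.43, SE 0.04, adjusted p 2.95e-09) and was also called higher in siACLY (0.24). GRAMD1C, a relative of GRAMD1B, rose in siACLY from 1.54 to 3.42 CPM (1.18, SE 0.19, adjusted p 1.2e-05).

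LXR partners, targets and oxysterol enzymes numbered 8 tested, of which none was higher and 2 were lower in siSLC25A1, none and 4 in siACLY, and 3 and 4 in siACO1. LPCAT3, an LXR target that remodels phospholipids, fell from 18.4 to 12.8 CPM in siSLC25A1 (log2 fold change -0.52, SE 0.08, adjusted p 1.75e-05) and to 11.2 CPM in siACLY (-0.72, SE 0.08, adjusted p 3.55e-08). LPCAT3 was also called lower in siACO1, at 14.5 CPM (-0.34, adjusted p 0.000822). Its count is uncertain, since 65.6% of its exon bases overlap EMG1 on the other strand. SMPDL3A, a phosphodiesterase and LXR target, fell in siACO1 from 0.363 to 0.11 CPM (-1.75, SE 0.63, adjusted p 0.0278), on 36 and 9 counts over 3 libraries and with overlapping ranges (0.195 to 0.499 against 0.0321 to 0.201 CPM). That SMPDL3A call was lost without siControl replicate 2 (-1.42) or 3 (-1.70) or siACO1 replicate 2 (-1.70) or 3 (-1.30). ABCG2, a multidrug transporter, fell in siACO1 from 0.687 to 0.349 CPM (-1.02, SE 0.40, adjusted p 0.0453), on 69 and 29 counts. The ABCG2 call was lost in 13 of the 18 alternative settings that gave a value, among them DESeq2 (-1.02, adjusted p 0.0735) and fits without any of the siControl libraries (-1.06 to -0.95), siSLC25A1 replicate 1 or 2, siACLY replicate 1 or 2 (-1.02 each), or siACO1 replicate 2 (-0.79) or 3 (-0.84). RXRA, the partner of LXR, was picked out after its values were seen: it fell from 112 CPM to 92.8 in siSLC25A1 (-0.27, adjusted p 7.97e-05), 71.8 in siACLY (-0.64, adjusted p 7.85e-12) and 87.6 in siACO1 (-0.35, adjusted p 4.79e-07).

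The knockdowns were then compared with each other, which tests differences between their effects directly. Between siSLC25A1 and siACLY, 5 of the 31 genes were higher in siSLC25A1 and 12 lower, against 17.5% and 16.3% of all tested genes. The share of higher genes among all called genes in that comparison was 51.8%, and 41.0% with library totals alone, where 5 sterol genes were higher and 13 lower. Between siSLC25A1 and siACO1, 4 were higher in siSLC25A1 and 13 lower, against 21.8% and 20.3%. With library totals alone they were 4 and 16, and the share of higher genes among all calls was 42.2% instead of 51.8%. Between siACLY and siACO1, 9 were higher in siACLY and 7 lower, against 21.4% and 20.7%. The median log2 difference of the 31 genes was -0.08, -0.11 and 0.02 in that order. Without siACO1 replicate 3 the counts were 7 higher and 12 lower, 5 and 12, and 9 and 6.

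Synthesis genes made up 19 of the 31 tested. Of the 12 genes lower in siSLC25A1 than in siACLY 10 were synthesis genes, and of the 13 lower than in siACO1 8 were, the latter close to their share of the list. DHCR7 was lower in siSLC25A1 than in siACLY by a log2 difference of -0.88 (SE 0.06, adjusted p 3.17e-12) and than in siACO1 by -0.74 (adjusted p 3.79e-11). MSMO1 differed by -0.89 and -0.86 (adjusted p 8.78e-11 and 5.47e-11), TM7SF2 by -0.74 and -0.87 (adjusted p 1.63e-07 and 3.45e-09), and INSIG1, outside the enzymes, by -0.55 and -0.63 (adjusted p 3.85e-07 and 1.47e-08). The difference of MVK between siSLC25A1 and siACO1 was -0.59 (adjusted p 1.04e-06).

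Between siACLY and siACO1, 5 of the 8 genes of the isoprenoid segment were higher in siACLY and none was lower, against 21.4% and 20.7% of all tested genes. Of the 11 tested genes of the ring segment, DHCR7 was higher and LBR lower. IDI1 had a log2 difference of 0.26 (adjusted p 0.000518) and MVD one of 0.19 (adjusted p 0.00375), and both calls held in all 19 alternative settings. The others in the isoprenoid segment were HMGCS1, ACAT2 (0.16, adjusted p 0.0273) and FDPS (0.18, adjusted p 0.0106). The ACAT2 call was lost without siACLY replicate 1 (0.14) or 2 (0.12) or siACO1 replicate 1 (0.16) or 2 (0.11), and in a fit of only the 2 groups (0.16). The FDPS call was lost without siACLY replicate 2 (0.13) or siACO1 replicate 1 (0.14). DHCR7 had a difference of 0.14 (adjusted p 0.0421), a call lost in 9 of the 19 settings: without any siControl library (0.14), siACLY replicate 2 (0.12) or 3 (0.13) or siACO1 replicate 1 or 2 (0.11), with DESeq2 (0.14) and in a fit of only the 2 groups (0.14).

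The enzyme genes MSMO1 and SQLE were not called between these knockdowns. MSMO1 had a log2 difference of 0.02 (95% confidence interval -0.11 to 0.16, adjusted p 0.818) and SQLE one of -0.01 (-0.12 to 0.10, adjusted p 0.93). Several regulators and carriers, and LBR, did differ. SREBF2 was lower in siACLY by -0.54 (adjusted p 1.69e-10), LBR by -0.40 (adjusted p 4.55e-08), MYLIP by -0.84 (adjusted p 3.89e-07) and NR1H3 by -0.42 (adjusted p 0.000664). NPC1, NPC2 and SOAT1 were higher in siACLY, by 0.49, 0.39 and 0.46 on the log2 scale (adjusted p 2.17e-08, 1.52e-06 and 1.46e-10).

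For HMGCS1 and SREBF1 the call between siACLY and siACO1 did not hold in every setting, though the direction did. HMGCS1 was higher in siACLY by 0.18 (adjusted p 0.0127), a call lost without siACLY replicate 2 (0.16) or siACO1 replicate 3 (0.13). SREBF1 was lower in siACLY by -0.14 (adjusted p 0.0184), a call lost without siACLY replicate 1 (-0.13) or 3 (-0.14) or siACO1 replicate 1 (-0.13).

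NPC1 and SOAT1 also differed between siSLC25A1 and siACO1, by 0.57 (adjusted p 1.66e-09) and 0.54 (adjusted p 4.6e-12) on the log2 scale, but were not called between siSLC25A1 and siACLY, where NPC1 had a difference of 0.07 (95% confidence interval -0.04 to 0.19) and SOAT1 one of 0.08 (0.00 to 0.16, adjusted p 0.11). The SOAT1 difference between siSLC25A1 and siACLY was called without siACO1 replicate 3 (0.09, adjusted p 0.0354), a library outside that comparison that enters the shared estimate of spread. NPC2 was lower in siSLC25A1 than in siACLY by -0.56 (adjusted p 1.15e-08). ABCA1 had a log2 difference of 0.99 between siSLC25A1 and siACLY that was not called (95% confidence interval 0.17 to 1.82, adjusted p 0.0576), and it was called without siSLC25A1 replicate 3 (1.15), siACLY replicate 3 (1.27) or siACO1 replicate 3 (1.00).

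**Figure D4:**
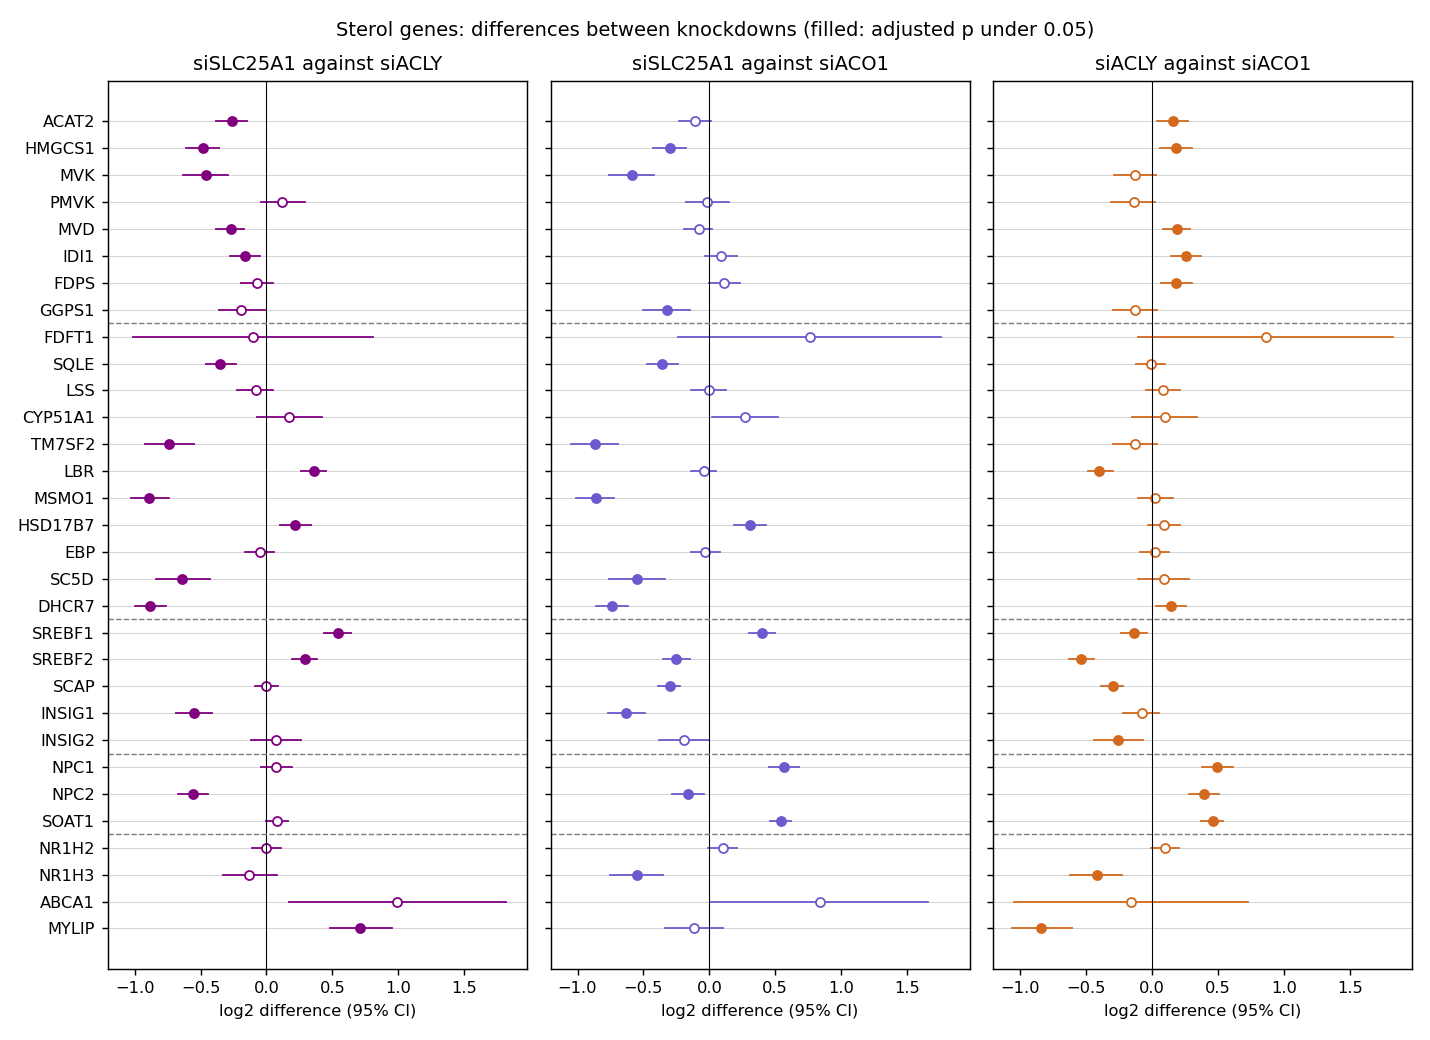
Log2 difference of each tested sterol gene between pairs of knockdowns (x axis; first named minus second), with its 95% confidence interval from edgeR on 3 libraries a group; filled points have an adjusted p under 0.05. In the siSLC25A1 panels MSMO1, DHCR7 and TM7SF2 lie to the left of 0, and in the siACLY against siACO1 panel MSMO1 and SQLE lie on 0 while NPC1, NPC2 and SOAT1 lie to the right.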

How the data were processed

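Poly(A) RNA of 12 MiaPaCa-2 libraries, 3 for each of 4 siRNAs, was sequenced. The deposited table holds counts of reads for each gene, as whole numbers without normalization, per the file headers and the values. Per the submitters' processing notes, CASAVA, FastQC, Trim Galore, STAR 2.7.0e and DESeq2 were used and the builds GRCm39 and GRCh38 were named. The counting tool, the annotation and the use of strand are not given in the sources used here.

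Symbols were matched to 62700 of 70116 identifiers (89.4%), and identifiers without a symbol held between 0.119% and 0.148% of a library's counts. Low genes were removed with filterByExpr in edgeR 4.0.16 (R 4.3.3) at its default settings, which left 16197 genes. With TMM scaling, the 12 libraries entered 1 robust quasi-likelihood fit with a term for each of the 4 groups and no block, which left 8 residual degrees of freedom. Tests were two-sided F tests with Benjamini-Hochberg adjustment over every tested gene, and calls were made below an adjusted p of 0.05. Adjusted p-values in the text come from edgeR. Library totals of 24159424 to 43792811 counts set the precision, and levels relative to a total do not show a change in RNA content per cell. The script was tested on simulated data.

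All 34 genes are named by role. Full statistics were given for the 6 called genes with the largest change in each comparison with siControl and for genes called in opposite directions in different knockdowns, and of the further 65 genes for the 3 called genes with the largest change in each such comparison. The genes, lists and rules were chosen with earlier results of these data known. Counts were treated as uncertain where another gene covered 20% or more of a gene's exon bases, or where 20% or more of its 31-base transcript stretches occurred in other genes (GENCODE 29, GRCh38). Alternatives were size factors by median of ratios, scaling by library totals, DESeq2 1.42.0, no filter, at least 10 counts in every library, a replicate block, a fit of only the groups compared, and leaving out each library.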

Additional observations from a re-analysis of the deposited data

How the results depend on the processing

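Over 19 alternative settings, the 31 tested genes gave 186 differences in 6 comparisons, and none of the 98 called ones changed direction. Of these calls 84 held in every setting and 14 were lost in at least 1, while 17 differences that were not called became so in at least 1. The number of called sterol genes when each library was left out ranged, against siControl, from 9 to 12 for siSLC25A1 (11 with all libraries), 19 to 21 for siACLY (20) and 15 to 18 for siACO1 (17). Between knockdowns it ranged from 16 to 19 for siSLC25A1 against siACLY (17), from 17 to 19 for siSLC25A1 against siACO1 (17) and from 11 to 16 for siACLY against siACO1 (16). The other settings gave 10 to 11, 19 to 21, 16 to 19, 17 to 18, 16 to 20 and 14 to 16 in the same order.

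The deviations of same-numbered libraries of different groups had r from -0.054 to 0.108 (18 pairs, median 0.0205), against -0.103 to 0.119 for 36 pairs with different numbers (median -0.007). Not every same-numbered pair was over 0.1, so the numbers were not taken to pair the libraries, although 8 of 12 libraries correlated best with their own number, a hint from the data only. With the replicate number as a block, the called sterol genes numbered 11, 20, 17, 17, 17 and 16, as without it. Few counts limit the results of some genes, among them FDFT1, ABCA1, ABCG1, NSDHL, STARD4, SMPDL3A and ABCG2. Whether depth or a loss in the counting kept these counts low was not tested. The same settings were run for the 9 named genes of the further lists, a choice made after seeing the data. Their calls against siControl held wherever the settings gave a value, except those of SMPDL3A and ABCG2 in siACO1, and RNF145 in siSLC25A1 (-0.13, adjusted p 0.0678) became called in 3 settings (-0.18 to -0.13).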
